A study of Mus musculus with 8 samples.

Results

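Ttr and Ptgds, 2 of the 32285 genes counted, were followed through every annotated cell type of 8 single-nucleus RNA-seq libraries and through the barcodes outside the annotation used here. The 2 genes were selected on a genotype contrast of the same libraries: a fit to the granule neuron progenitors (GNPs) with the replicate number as a block had called both higher in Tbx1+/-, and Ttr had also been called higher in a PTB class when low counts were kept. Their genotype differences in the PF/F, and that of Ttr in the PTB, are therefore given as a description with no test. The question was whether the level of each gene was flat over the cell types of a library.

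Of the 8 libraries, 4 came from the paraflocculus/flocculus (PF/F), the lateral lobes of the mouse cerebellum, and 4 from the petrous temporal bone (PTB), the part of the skull around them. In each tissue, 2 libraries were WT and 2 were Tbx1+/-, lacking 1 copy of the gene for the T-box transcription factor Tbx1 in every cell. Each library pooled 5 untreated P5.5 mice on the C57/BL6 background, so the pools, and not single animals, were the replicates. The study used 2 batches, and libraries with the same replicate number are taken here as 1 batch, which the labels do not state. Values of 4 libraries are given in the order WT 1, Tbx1+/- 1, WT 2, Tbx1+/- 2.

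Ttr encodes transthyretin, a carrier of thyroxine and of retinol-binding protein that the choroid plexus epithelium makes in large amounts in the brain. Ptgds encodes the lipocalin-type prostaglandin D synthase, which turns prostaglandin H into prostaglandin D and is abundant in the meninges, the choroid plexus and maturing oligodendrocytes. In droplet methods, RNA set free while nuclei are isolated enters droplets with any nucleus, so a transcript of one strong source can be counted in nuclei of all types. In mm10, Ttr (ENSMUSG00000061808) lies on chromosome 18 from 20665280 to 20674321 on the plus strand, and Ptgds (ENSMUSG00000015090) lies on chromosome 2 from 25466709 to 25470046 on the minus strand. No other annotated gene overlapped either of them. UMIs (unique molecular identifiers, 1 per captured transcript) were counted over exons and introns of the whole gene.

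The libraries held 10583 to 17103 barcodes in the PF/F and 11906 to 21868 in the PTB, of which 9153 to 13835 and 5981 to 9977 were annotated. The PTB annotation used here covers connective tissue, chondrocyte, osteoblast and osteoclast types. The paper also annotated other bone cell types, among them immune cells and neurons. The PTB barcodes outside the annotation used here therefore include nuclei that the authors placed in other types. The median annotated nucleus carried 2610 to 3503 UMIs in PF/F libraries and 3853 to 4758 in PTB libraries. The 2 batches differed in depth and in the share of mitochondrial UMIs, which was 1.05%, 0.967%, 0.407% and 0.564% in the PF/F libraries and 1.43%, 1.02%, 0.604% and 0.718% in those of the PTB. Any pair of libraries shared 35 to 94 barcodes. Tissue markers went with the tissue, with a summed level of 825 to 1088 CPM for the 4 granule lineage genes in annotated PF/F nuclei against 4.04 to 5.07 CPM in the PTB. The 4 osteoblast markers summed to 925 to 1213 CPM in the PTB and to 2.89 to 4.03 CPM in the PF/F.

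In the PF/F, Ttr was far from flat, because the small type annotated RL.early (early rhombic lip) held it at a level well above all others. Levels are UMIs of the gene per 1000000 UMIs of the summed nuclei (CPM), over types with at least 50 nuclei in the library. RL.early reached 1395, 2757, 1343 and 4287 CPM, while the median type stood at 56.5, 96.9, 57.2 and 223 CPM. RL.early was thus the highest type in 4 of 4 libraries, by 19.2 to 28.4 times the median type and by 37.7 to 57.0 times the lowest one. The chi-square of the UMIs over types was 1049, 2365, 990 and 3453 per degree of freedom, where counting error alone gives values near 1. The types had been clustered on counts that include both genes, so this spread is a description and not an independent test.

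**Figure D1:**
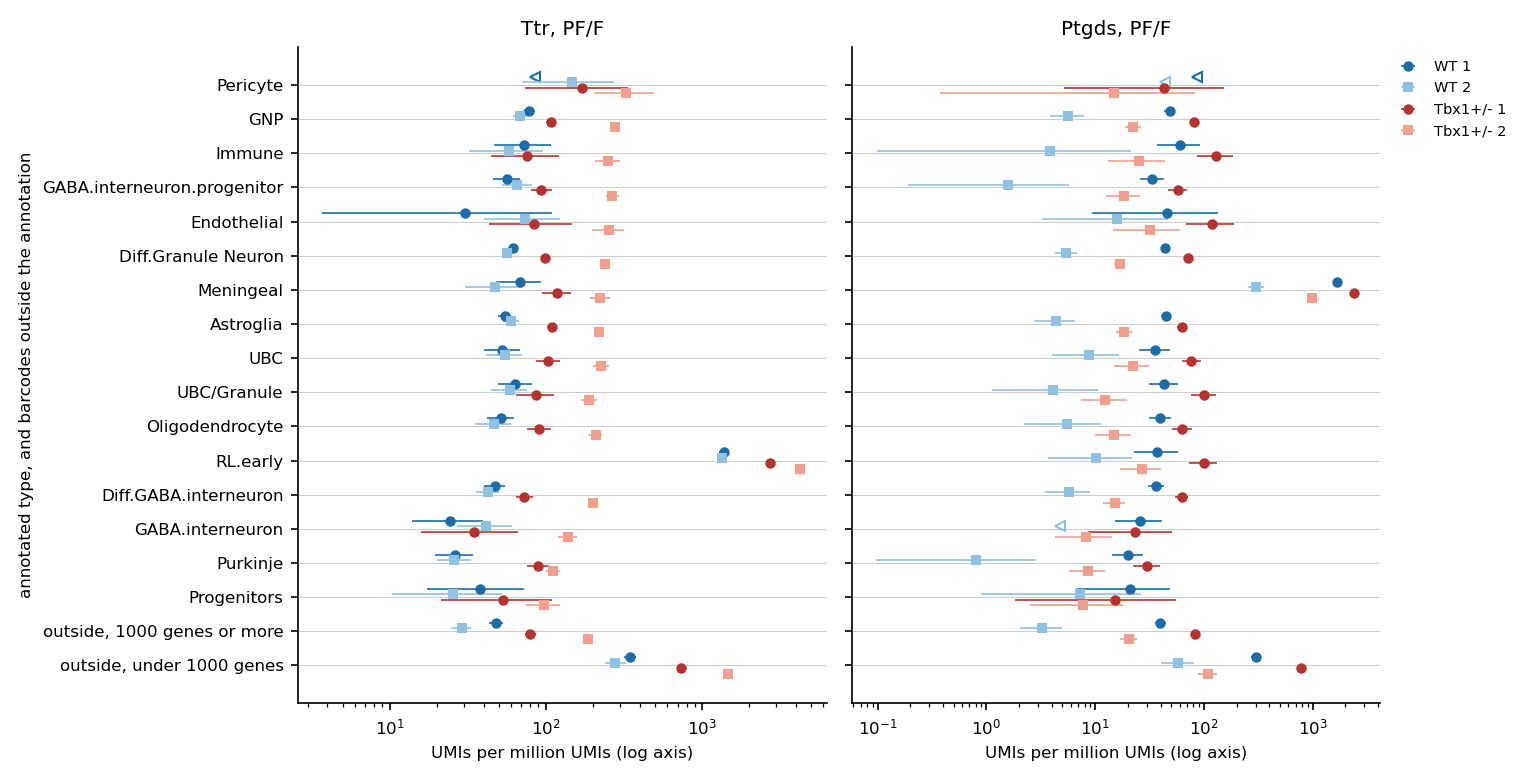
Level of Ttr and Ptgds (CPM, log axis) in each annotated PF/F type, with 1 point per library and the barcodes outside the annotation beside them. Ttr stands highest in RL.early, at 1343 to 4287 CPM, and Ptgds in the Meningeal type, at 303 to 2416 CPM.

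RL.early is a small type, with 141, 141, 129 and 174 nuclei, or 1.02% to 1.41% of the annotated nuclei. A few of its nuclei held nearly all of its Ttr. Those with at least 10 Ttr UMIs numbered 6, 15, 6 and 15 and carried 96.1%, 96.4%, 94.4% and 96.4% of the Ttr UMIs of the type. The richest nucleus of each library held 219, 241, 268 and 1022 Ttr UMIs. In the remaining RL.early nuclei, Ttr fell to 56.5, 110, 78.7 and 168 CPM, close to the median type in WT 1 and Tbx1+/- 1, above it in WT 2 and below it in Tbx1+/- 2.

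The 42 RL.early nuclei with at least 10 Ttr UMIs carried markers of choroid plexus epithelium, the tissue that secretes cerebrospinal fluid. All 12 genes of that marker list were detected in them. Tmem72, a membrane protein gene of the choroid plexus, had 63 UMIs in these 42 nuclei and 1 UMI in the 543 other RL.early nuclei. Kl, which encodes klotho, had 24 against 0 UMIs, and Slc4a5, a bicarbonate transporter gene, had 32 against 1. Folr1, a folate receptor gene, had 90 against 74 UMIs, and Otx2, a transcription factor gene, had 62 against 134. Per nucleus, all 12 markers were higher in the 42 nuclei, Otx2 at 1.48 against 0.247 UMIs. At least 3 choroid plexus UMIs were found in 5 of 6, 12 of 15, 5 of 6 and 14 of 15 of them.

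**Figure D2:**
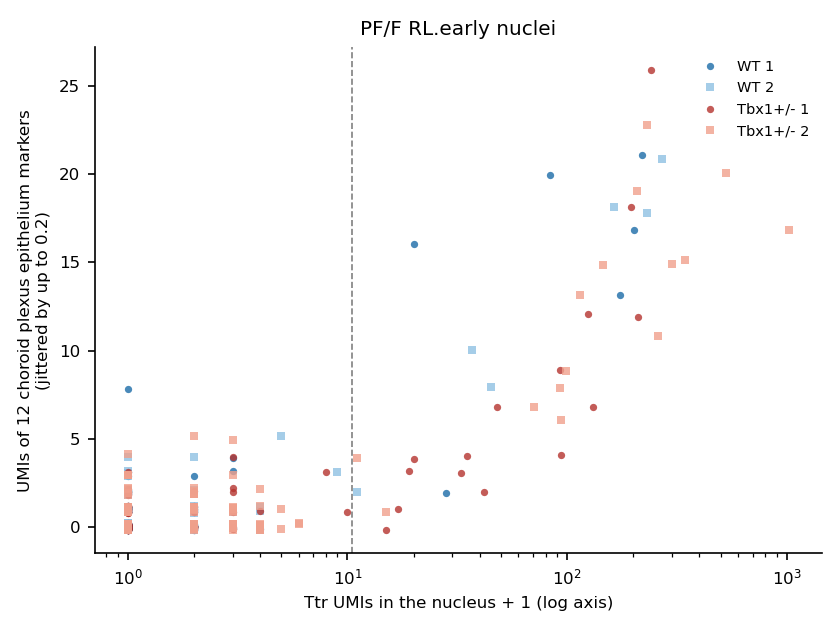
Ttr UMIs against the summed UMIs of the 12 choroid plexus markers in each of the 585 RL.early nuclei of the 4 PF/F libraries. The nuclei with at least 10 Ttr UMIs, 42 in all, lie mostly to the side of high marker counts, and the largest holds 1022 Ttr UMIs.

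The genes that led RL.early itself were not choroid plexus markers. Among its 10 leading genes against the other types were Dnah12 (mean 1808 against 1.06 CPM) and Ak9 (600 against 1.56 CPM). Cfap65 (348 against 0.544 CPM) and Spag16 (2483 against 13.7 CPM) were also among them. Dnah12 encodes a dynein heavy chain and Cfap65 and Spag16 encode proteins of the ciliary axoneme. The label RL.early is kept here as the annotation gave it, although Dnah12, Cfap65 and Spag16 are genes of motile cilia. The leading genes were not tested as a set for any function. The genes whose levels followed Ttr most closely over the 48 library-by-type sums of 12 PF/F types were 1110032A03Rik (Pearson's r of log2(CPM + 1) 0.87), 1810020O05Rik (0.84), Zfp474 (0.83), 4833427G06Rik (0.83) and Ttc29 (0.83). Ttc29 was also among the leading genes of RL.early, at 246 against 0.422 CPM. The sums share 4 libraries, and the correlations rest largely on 1 type, so they carry no p.

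Outside RL.early, the spread of Ttr over PF/F types was smaller, and in 3 of the 4 libraries CPM followed the depth of the type. CPM still varied by 3.19, 1.61, 2.86 and 2.85 times between the highest and the lowest type, with a chi-square of 9.77, 4.41, 6.47 and 32.8 per degree of freedom. Counted per nucleus rather than per UMI, the level was nearly even in 3 of the 4 libraries, with a chi-square of 0.850, 9.10, 0.837 and 1.83 per degree of freedom. The median type held 0.201, 0.288, 0.225 and 0.902 Ttr UMIs per nucleus. Across types, log CPM fell with the log of the median UMIs of a nucleus, with Pearson's r of -0.97, -0.20, -0.84 and -0.97 over 12, 11, 13 and 14 types. These types share a library, and a larger UMI total enters the denominator of CPM itself.

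In the library Tbx1+/- 1, in which the per-nucleus level was not even, some types outside RL.early had nuclei with at least 10 Ttr UMIs. Such nuclei held from 7.89% (GNP) to 49.7% (Purkinje) of the Ttr UMIs of their type. Among its Purkinje cells, the large output neurons of the cerebellar cortex, 1 nucleus of 307 held 77 of the 155 Ttr UMIs and 5 choroid plexus marker UMIs. In its Astroglia, 3 of 2017 nuclei held 178 of 715 UMIs, and in its Diff.Granule Neuron type 6 of 5297 nuclei held 178 of 1525. Without nuclei that had at least 10 UMIs of Ttr or Ptgds, the fold of Ttr between the highest and the lowest PF/F type was 2.84. That is a geometric mean over the 4 libraries, against 47.1 with all nuclei. Leaving out those nuclei uses the count of the gene itself and describes where its UMIs lay.

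The share of nuclei with at least 1 Ttr UMI showed the same pattern. It was 21.3%, 29.1%, 24.0% and 52.9% in RL.early and 16.8%, 21.4%, 18.2% and 51.7% in the differentiated granule neurons, a type not known to make transthyretin. Median depth was 3369, 2976, 3785 and 4302 UMIs in RL.early and 2839, 2572, 3483 and 3289 in the granule neurons. After thinning each nucleus to 1000 UMIs, the shares were 9.22%, 21.3%, 10.9% and 22.4% in RL.early and 6.51%, 9.63%, 5.92% and 22.3% in the granule neurons. In Tbx1+/- 2 the shares of the types were thus close, at 4287 CPM in RL.early and 239 CPM in the granule neurons.

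**Figure D3:**
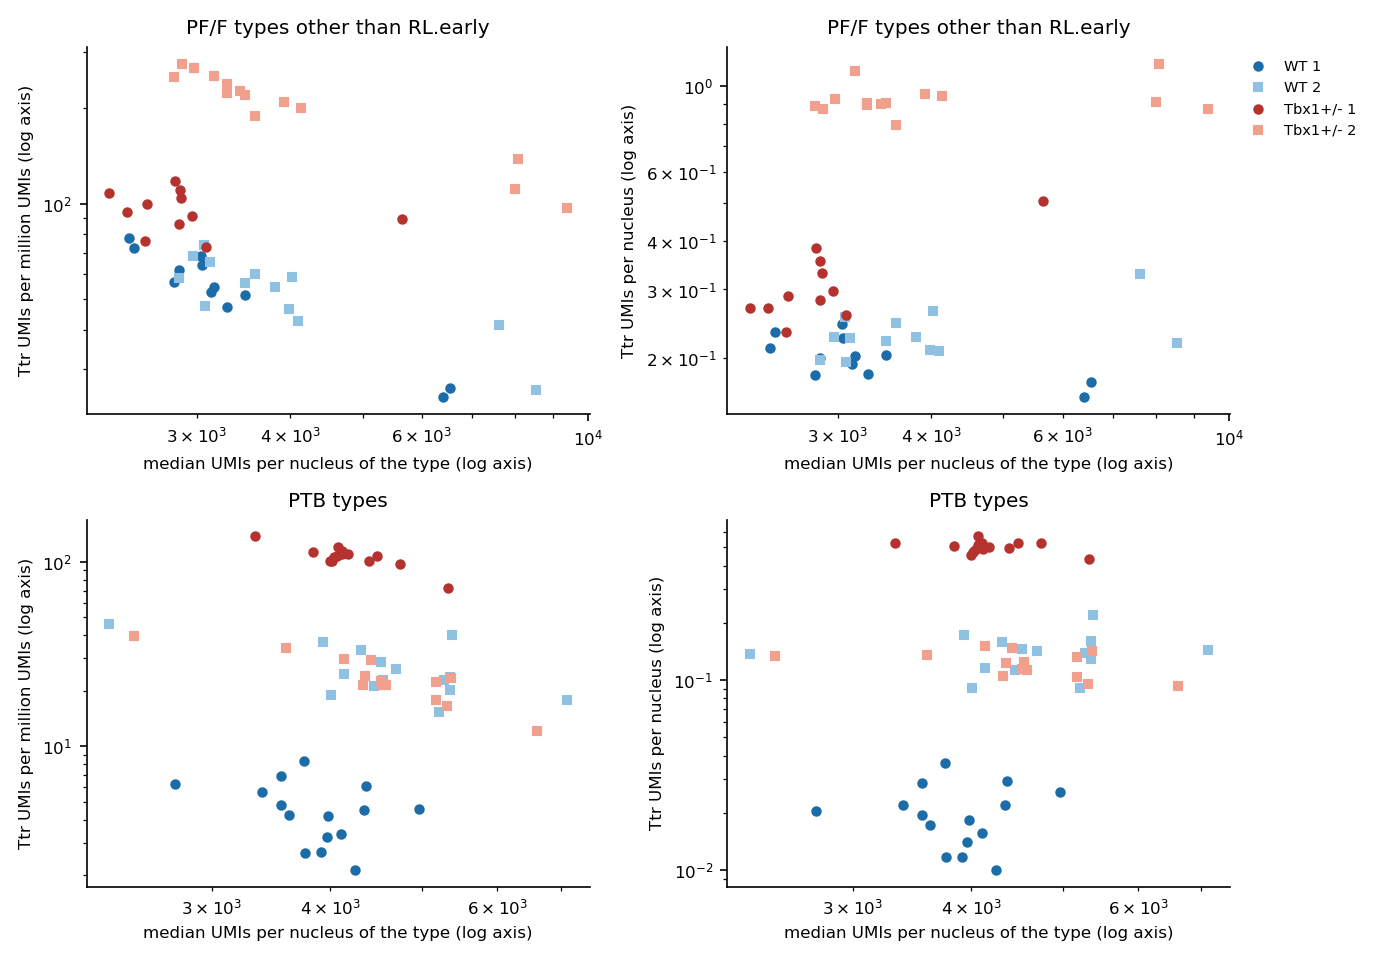
Level of Ttr in each annotated type against the median UMIs per nucleus of the type, as CPM and as UMIs per nucleus (log axes). Each point is 1 type with at least 50 nuclei in 1 library, with RL.early left out in the PF/F. Pearson's r of log CPM with log median UMIs was -0.97, -0.20, -0.84 and -0.97 in the PF/F. In the PTB it was -0.34, -0.88, -0.60 and -0.88.

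Depth was compared across annotated nuclei, without RL.early for Ttr and without Meningeal for Ptgds in the PF/F, with all types for Ttr and without CT2 and CP3 for Ptgds in the PTB. From nuclei with 1000 to 2000 UMIs to the deepest bin, of at least 8000 UMIs, or of 4000 to 8000 in Tbx1+/- 1, Ttr in the PF/F fell from 108, 156, 104 and 587 CPM to 20.5, 68.1, 25.7 and 93.0 CPM. UMIs per nucleus went from 0.192, 0.275, 0.183 and 1.04 to 0.184, 0.359, 0.260 and 0.938. A nucleus with several times more RNA therefore held 0.906 to 1.42 times the number of Ttr UMIs. For Ptgds in the PF/F, CPM fell by 2.18 to 5.88 times and UMIs per nucleus changed by 0.97 to 1.71 times. In the PTB, UMIs per nucleus went up with depth by 1.16, 1.84, 2.24 and 2.13 times for Ttr and by 1.34 to 1.89 times for Ptgds. CPM of Ttr there fell by 2.93 to 4.81 times.

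Ptgds peaked elsewhere in the PF/F. Its highest type was Meningeal, the cells of the membranes around the brain, in 4 of 4 libraries, at 1666, 2416, 303 and 991 CPM, against 39.6, 74.1, 5.48 and 18.5 CPM in the median type. The chi-square over types was 1894, 3242, 378 and 1685 per degree of freedom. The fold over the lowest type was 82.4, 80.6 and 129 in WT 1, Tbx1+/- 1 and Tbx1+/- 2. In WT 2 the lowest types held fewer than 3 Ptgds UMIs, the limit used here, with 0 in GABA.interneuron and 2 in Purkinje, so no fold is given for it. The markers went with the label: Slc6a13, a transporter gene, and Dcn, which encodes decorin, were among the leading genes of the Meningeal type, at 696 and 581 CPM against 4.41 and 5.18 CPM in other types.

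As with Ttr, few nuclei made the peak. Meningeal nuclei with at least 10 Ptgds UMIs numbered 18 of 155, 22 of 227, 2 of 123 and 10 of 201 and held 93.1%, 93.8%, 90.8% and 91.5% of the Ptgds UMIs of the type. Their summed meningeal markers were 9.17, 13.1, 27.5 and 12.7 UMIs per nucleus, against 9.73, 10.6, 14.6 and 15.3 in the other Meningeal nuclei. The Ptgds-rich nuclei thus carried the markers of their own type at a level near that of their neighbours, apart from WT 2 with 2 such nuclei. Ptgds in oligodendrocytes, a known source in older brain, was 39.6, 63.7, 5.52 and 14.9 CPM, close to the median type.

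Over the other PF/F types, Ptgds varied less per nucleus than per UMI. The chi-square was 4.22, 9.42, 2.30 and 4.02 per degree of freedom by UMIs and 1.73, 4.96, 1.85 and 1.71 by nuclei, with folds of 1.81, 2.41, 6.71 and 2.66 per nucleus, the third against 3 counts. The median type held 0.143, 0.208, 0.0187 and 0.0707 UMIs per nucleus. Its level in these types moved with its batch, since both libraries of batch 2 were below both of batch 1. Differentiated granule neurons had a Ptgds UMI in 12.6%, 17.2%, 1.99% and 5.73% of nuclei, and Meningeal nuclei in 32.9%, 36.6%, 6.50% and 20.9%. Median depths were 2839, 2572, 3483 and 3289 UMIs in the granule neurons and 3039, 2806, 3078 and 3289 in the Meningeal nuclei. The Meningeal level itself was also lower in batch 2, by genotype 303 against 1666 CPM in WT and 991 against 2416 CPM in Tbx1+/-. Among the 5 genes nearest to Ptgds over the 48 PF/F sums were Nsa2 (r = 0.87), Maged2 (0.85), Tcf25 (0.77) and Col1a1 (0.77), while Ttr had an r of 0.11 with it.

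In the PTB, Ttr was low and the flattest of the 4 patterns. No type stood apart in all libraries. The median type had 4.51, 108, 23.7 and 22.4 CPM, and the highest stood 3.88, 1.91, 3.00 and 3.27 times above the lowest. The highest type was CT2 in WT 1, CT1 in Tbx1+/- 1 and matured chondrocytes in both libraries of batch 2. The chi-square was 1.32, 5.37, 3.56 and 2.69 per degree of freedom (Benjamini-Hochberg adjusted p = 0.186, 1.08e-09, 7.51e-06 and 0.00062 over 16 tests of 2 genes in 8 libraries), and 1.26, 1.02, 1.82 and 0.890 by nuclei. These tests cover counting error within a library only. Thinned to 1000 UMIs per nucleus, 0 of the 4 libraries had an unadjusted p under 0.05. That rests on fewer counts, with a geometric mean fold between types of 3.37 against 2.92 unthinned.

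Across libraries, PTB Ttr differed far more than across types. The 4 libraries held 0.0194, 0.502, 0.138 and 0.124 Ttr UMIs per nucleus in the median type. Osteoblasts, the bone-forming cells, stood at 4.51, 102, 20.1 and 22.4 CPM, and osteoclasts, the bone-resorbing cells, at 4.60, 72.1, 17.8 and 12.2 CPM. A Ttr UMI was found in 1.58%, 35.4%, 10.52% and 10.7% of osteoblasts and in 2.11%, 32.3%, 12.5% and 8.12% of osteoclasts, at median depths of 4340, 4390, 5356 and 5174 and of 4963, 5323, 7105 and 6617 UMIs. Both types were thus low or high together, by library. In all, 4 annotated PTB nuclei held at least 10 Ttr UMIs. The nearest genes over 56 sums of 14 types were Gphn (r = 0.67), Cmss1 (0.58), Gm42418 (0.56), Gm47283 (0.54) and Lars2 (0.53). The sums share 4 libraries, and Ttr differed more between these than between types. The correlations are therefore not a ranking over types alone and carry no p.

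**Figure D4:**
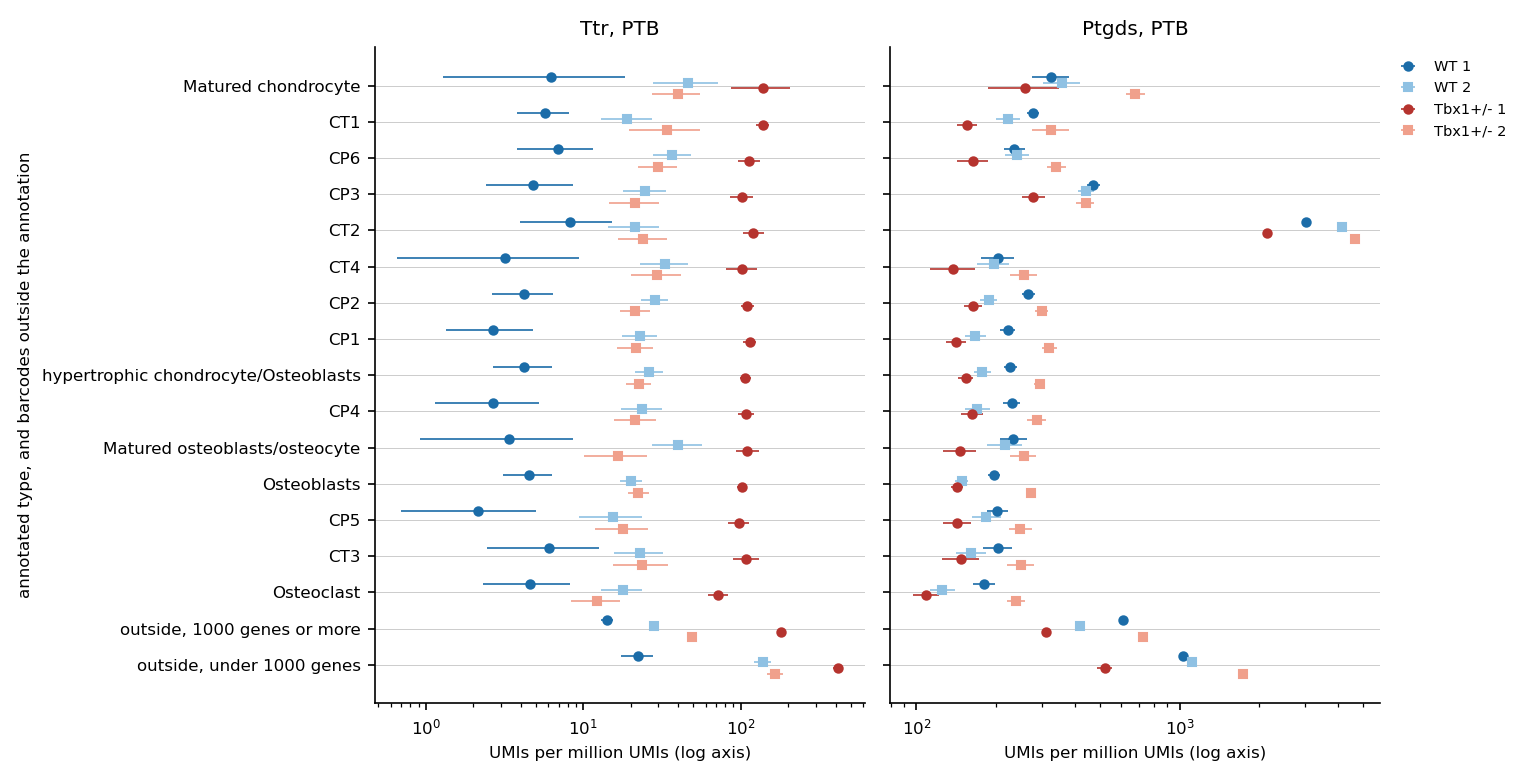
Level of Ttr and Ptgds (CPM, log axis) in each annotated PTB type, with 1 point per library and the barcodes outside the annotation beside them. Ttr differs by 1.91 to 3.88 times between types within a library, less than between WT 1, the lowest library, and Tbx1+/- 1, the highest, and Ptgds peaks in CT2 at 2153 to 4657 CPM.

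Among the annotated PTB types, Ptgds was highest in CT2. CT2, a connective tissue type, had 3020, 2153, 4141 and 4657 CPM, and CP3, a chondrocyte progenitor type, had 471, 278, 441 and 439 CPM. Matured chondrocytes, a small type with 147, 48, 138 and 254 nuclei, were as high as CP3 on average, at 323, 258, 357 and 679 CPM. The median type had 230, 151, 188 and 294 CPM. CT2 was highest in 4 of 4 libraries, at 16.7, 19.8, 33.0 and 19.4 times the osteoclasts, the lowest type, with a chi-square of 2062, 1907, 4276 and 3750 per degree of freedom. Among the 10 leading genes of CT2 were the solute carrier genes Slc6a20a (614 against 3.59 CPM), Slc6a13 (373 against 3.60 CPM), which is also on the meningeal list, and Slc47a1 (364 against 5.75 CPM), beside unnamed gene models such as Gm42397 (191 against 2.22 CPM). CT2 nuclei with at least 10 Ptgds UMIs numbered 54 of 272, 54 of 300, 71 of 267 and 83 of 259 and held 91.4%, 88.7%, 94.8% and 92.9% of its Ptgds.

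Without CT2 and CP3, PTB Ptgds lay within 1.79, 1.51, 2.84 and 2.83 times from the lowest to the highest type. The chi-square was 14.1, 4.36, 18.3 and 43.5 per degree of freedom by UMIs and 2.08, 2.37, 2.70 and 10.8 by nuclei. Osteoclasts, a type that arises from blood cells, had a Ptgds UMI in 55.7%, 44.8%, 54.7% and 73.7% of nuclei, and CT2 in 69.5%, 63.0%, 78.7% and 89.2%, at median depths of 4963, 5323, 7105 and 6617 UMIs in osteoclasts and 3752, 4072, 4449 and 4353 in CT2. A Ptgds UMI was thus common in all PTB types. The genes nearest to Ptgds over the 56 sums were Slc6a13 (r = 0.91), Atp13a5 (0.89), Vtn (0.88), Slc6a20a (0.86) and Rnf220 (0.86).

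Types with at least 50 nuclei in every library were ordered by mean CPM, and most neighbouring types did not differ in all libraries. Of 11 neighbouring pairs in the PF/F, the higher type was above the next in 4 of 4 libraries in 3 pairs for Ttr and 2 for Ptgds. Of 13 pairs in the PTB, that was so in 1 for Ttr and 4 for Ptgds. For Ttr in the PF/F, RL.early (2446 ± 1391 CPM, SD, n = 4) was followed by GNP (133 ± 97.3 CPM) and, last of 12, by Purkinje (63.2 ± 43.7 CPM). For Ptgds in the PF/F, Meningeal (1344 ± 906 CPM) was followed by Immune (54.9 ± 55.2 CPM), with Purkinje again last (14.9 ± 12.8 CPM). The SD between libraries was as large as the gaps between most neighbours. In the PTB, Ptgds ran from CT2 (3493 ± 1125 CPM) through CP3 (407 ± 87.1 CPM) to osteoclasts (164 ± 59.4 CPM), and Ttr from CT1 (49.1 ± 60.1 CPM) to osteoclasts (26.7 ± 30.7 CPM). Matured chondrocytes, with 48 nuclei in their smallest library, are left out of this order. Their means were 57.5 ± 56.4 CPM for Ttr, above that of CT1, and 404 ± 188 CPM for Ptgds.

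An edgeR fit of all genes to the type, with the library as a term, gave the same order of spread. Ttr in the PF/F had its highest type 4.57 above the median type on the log2 scale (quasi-likelihood F test, Benjamini-Hochberg adjusted p = 1.8e-65), and Ptgds 5.21 (adjusted p = 3.3e-70). In the PTB the values were 0.59 for Ttr (adjusted p = 0.00033) and 4.05 for Ptgds (adjusted p = 2.4e-52). Both genes passed in both tissues, but so did 96.8% of the 15906 genes tested in the PF/F and 91.1% of the 14926 in the PTB, so passing sets neither gene apart. The median gene had its highest type 1.21 above the median type in the PF/F and 0.80 in the PTB. A larger spread than that of Ttr was found in 10.42% of genes in the PF/F and 63.9% in the PTB, and a larger one than that of Ptgds in 7.53% and 4.02%. The size rested on the highest types: without RL.early, Ttr in the PF/F had 0.24, without Meningeal, Ptgds in the PF/F had 0.49, and without CT2 and CP3, Ptgds in the PTB had 0.95, each still past the threshold.

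The ratio of Ttr to Ptgds UMIs was compared over the types of a library. Over all types it varied by 914, 567, 847 and 705 times in the PF/F, from Meningeal at 0.0411, 0.0487, 0.157 and 0.225 to RL.early at 37.6, 27.6, 133 and 159. Without these 2 types, the median ratio was 1.30, 1.38, 9.50 and 12.9, and its chi-square was 1.19, 6.54, 1.70 and 0.825 per degree of freedom, with an unadjusted p under 0.05 in 1 of 4 libraries. In the PTB the ratio varied by 10.9, 15.8, 36.3 and 22.2 times, and without CT2 and CP3 its chi-square was 1.13, 1.602, 1.39 and 1.56, with 0 of 4 libraries at an unadjusted p under 0.05. The median ratio there was 0.0185, 0.704, 0.142 and 0.0748. The types left out are those that set the spread, and what an even ratio in the others comes from was not tested.

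Barcodes outside the annotation also held both genes. In the PF/F, the 3055, 3268, 1430 and 1968 such barcodes had 99.96, 183, 49.9 and 339 CPM of Ttr and 84.9, 194, 7.84 and 30.8 CPM of Ptgds. In the PTB, the 11891, 8228, 5925 and 6057 such barcodes had 14.8, 193, 33.8 and 56.0 CPM of Ttr and 639, 321, 454 and 785 CPM of Ptgds. Ranked by level, the PF/F libraries stood in the same order outside and inside the annotation for both genes. In the PTB, batch 2 for Ttr and the WT libraries for Ptgds changed places. In barcodes with fewer than 1000 detected genes, which the authors left out, PF/F Ttr reached 348, 741, 280 and 1481 CPM, or 0.270, 0.632, 0.221 and 1.09 UMIs per barcode, at a median of 703, 718, 705 and 603 UMIs. Few of them held much of this Ttr. Those with at least 10 Ttr UMIs numbered 2, 8 and 4 in WT 1, Tbx1+/- 1 and Tbx1+/- 2. They held 30.5%, 58.7% and 21.1% of it, and the rest stood at 243, 307 and 1172 CPM.

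In the PTB, the nuclei rich in Ttr were nearly all outside the annotation. Of 94 PTB barcodes with at least 10 Ttr UMIs, 90 were outside it, 11, 54, 8 and 17 per library, and 8, 49, 8 and 14 of them had at least 3 UMIs of choroid plexus markers. Tbx1+/- 1, with 54, had the most Ttr in its annotated nuclei (107 CPM), but the others did not follow their numbers, with 4.39, 24.1 and 22.2 CPM in WT 1, WT 2 and Tbx1+/- 2. The barcodes outside the annotation held 77.5%, 61.3%, 58.6% and 69.7% of the Ttr UMIs of the PTB libraries and 67.3%, 55.9%, 56.3% and 60.6% of their Ptgds UMIs. PTB barcodes with at least 10 Ptgds UMIs were also mostly outside the annotation, 390 of 521, 146 of 215, 188 of 277 and 233 of 350. The richest of these held 2751, 417, 1585 and 3457 Ptgds UMIs, and the richest CT2 nucleus 292, 469, 506 and 730. CT2 as a type held 8.54%, 14.9%, 21.5% and 15.0% of the Ptgds UMIs of the libraries. In the PF/F, 97 barcodes had at least 10 Ttr UMIs, 42 of them in RL.early, 27 in other types and 28 outside the annotation.

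Between genotypes, Ttr in GNPs stood at 78.2 and 68.5 CPM in WT and at 108 and 276 CPM in Tbx1+/-, and Ptgds at 48.5 and 5.65 CPM in WT and at 82.0 and 22.4 CPM in Tbx1+/-. The Ptgds values of the genotypes overlapped, since each batch had its own level. Both genes were chosen by this contrast, so their levels by genotype are a description. The difference, Tbx1+/- minus WT on the log2 scale, was 1.41 ± 0.39 (SE) for Ttr and 0.95 ± 0.85 for Ptgds, and with the replicate block it was 1.27 and 1.06. Without the block, no gene passed in GNPs (0 of 15361, or 0%, by edgeR and 0 by DESeq2), while 139 and 15 had p under 0.05 before adjustment. With the block, edgeR passed 3 genes, or 0.0195%, and 2 of these are Ttr and Ptgds, since this is the contrast by which they were chosen. Ptgds changed sign without Tbx1+/- 1, to -0.30, and reached 3.24 without WT 1. Ttr was higher in Tbx1+/- without each library in turn, at 0.58 to 1.91.

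The higher Ttr and Ptgds of Tbx1+/- in the PF/F was not limited to GNPs. Within each batch, both genes were higher in Tbx1+/- in 12 of 12 types with at least 50 nuclei in every library. Of the 4 smaller types, Ttr was higher in both batches in Endothelial, GABA.interneuron and Progenitors, and Pericyte, with 12 nuclei in its smallest library, had no Ttr UMI in WT 1. In these types Ptgds was lower in Tbx1+/- in batch 1 in GABA.interneuron (23.3 against 26.0 CPM) and in Progenitors (15.2 against 21.1 CPM). In batch 1 the fold lay between 1.05 and 3.40 for Ttr and between 1.38 and 2.68 for Ptgds. The 3.40 was that of Purkinje cells, in which 1 nucleus of Tbx1+/- 1 held 77 of the 155 Ttr UMIs. Batch 2 showed larger folds, between 3.19 and 4.70 for Ttr and between 2.52 and 4.24 for Ptgds in the 9 types with at least 3 UMIs in every library. In the other 3 types WT 2 held 1 or 2 Ptgds UMIs, and no fold is given. These types share the libraries of the contrast by which the genes were chosen, so the counts are a description. A fit of genotype-by-type terms to all genes (edgeR) was also made, and no p is given for Ttr or Ptgds, whose choice rested on genotype. Of all genes, 0 of 15906 (0%) passed, and 257 had p under 0.05 before adjustment.

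**Figure D5:**
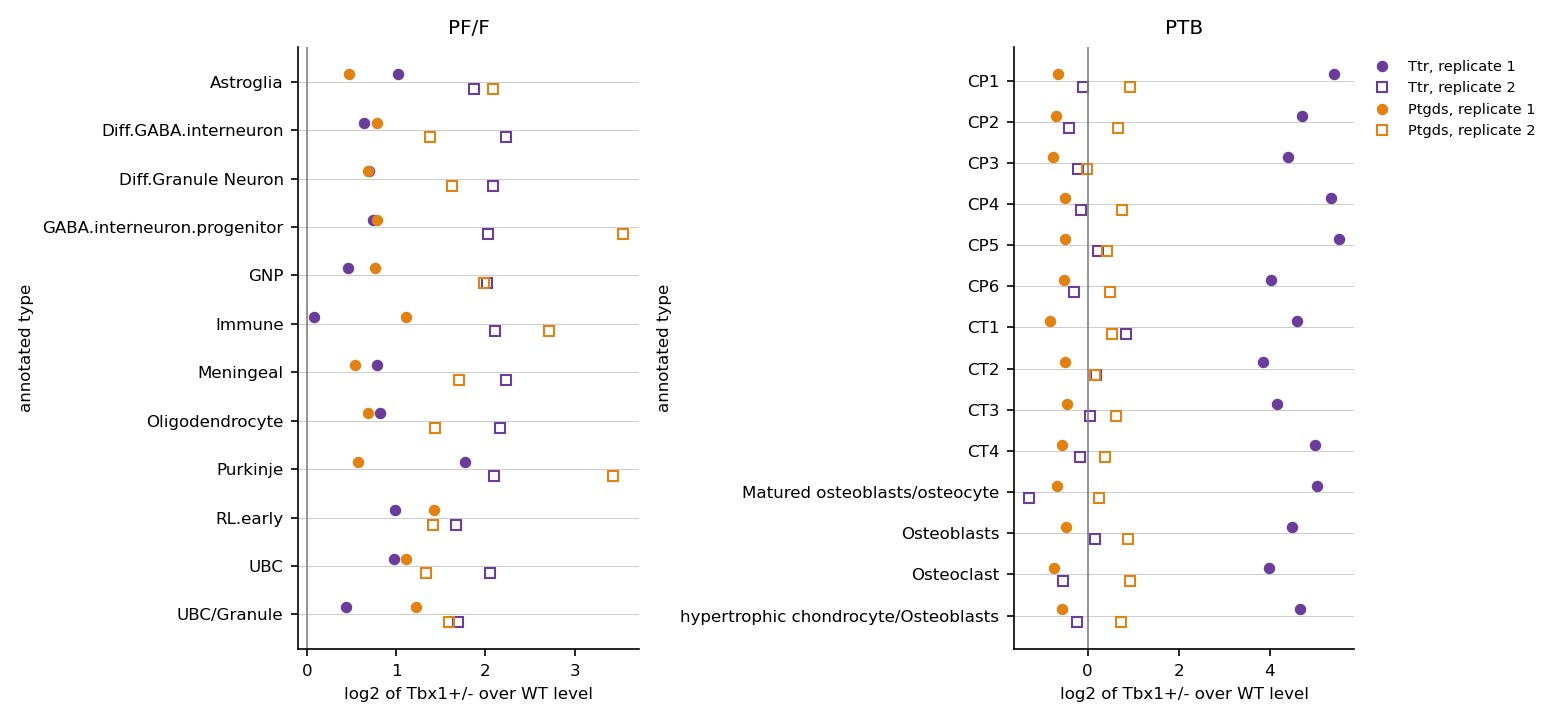
Fold of Tbx1+/- over WT within each batch for Ttr and Ptgds in each type of the PF/F and PTB (log axis, with a line at equal levels). In the PF/F all 12 types lie above the line in both batches, and in the PTB the types of 1 library pair move together, Ttr in batch 1 by 14.5 to 45.7 times and Ptgds below the line in batch 1.

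Over all annotated PF/F nuclei, Ttr was 75.5 and 75.4 CPM in WT and 131 and 288 CPM in Tbx1+/-, and Ptgds was 63.3 and 8.99 CPM in WT and 111 and 31.9 CPM in Tbx1+/-. The log2 differences were 1.49 ± 0.38 and 0.99 ± 0.99, and 0 of 20756 genes (0%) passed by edgeR or DESeq2, where 99 and 29 had p under 0.05 before adjustment. For Ptgds the difference was -0.18 without Tbx1+/- 1, and for Ttr it was 0.81 without Tbx1+/- 2. Alongside, the summed level of the 12 choroid plexus markers was 122, 131, 126 and 114 CPM, the 9 meningeal markers summed to 68.7, 101, 77.1 and 94.0 CPM and the 5 erythroid genes to 264, 241, 207 and 416 CPM, and no choroid plexus marker was at 0. The choroid plexus sum was lowest in Tbx1+/- 2, where Ttr was highest, but it also counts these markers in nuclei with few Ttr UMIs. Annotated nuclei with at least 10 Ttr UMIs numbered 7, 31, 7 and 24, with means of 13.3, 4.65, 11 and 8.08 marker UMIs. The other annotated nuclei had means of 0.413, 0.385, 0.513 and 0.452. None of the choroid plexus, meningeal or erythroid genes passed the test. Of the 12 choroid plexus markers, 9 had a positive log2 difference, among them Sostdc1 (1.05), Tmem72 (0.65), Kl (0.55) and Slc4a5 (0.43). The median log2 difference was 0.14 for the choroid plexus list, 0.45 for the meningeal list and 0.57 for the erythroid list, beside 0.0025 over all genes. The part of these cells in the levels of Ttr and Ptgds was not tested. Without nuclei holding at least 10 Ttr UMIs, Ttr was 58.1, 87.0, 55.2 and 219 CPM. That cut uses the count of the gene itself, in a contrast by which Ttr was chosen, so these values are a description.

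In the PTB, the genotypes did not differ in a common direction. Ttr in annotated nuclei was 4.39 and 24.1 CPM in WT and 107 and 22.2 CPM in Tbx1+/-, a log2 difference of 2.20 ± 1.01 in which 1 library of Tbx1+/- was far higher and the other below WT 2. It was 0.66 without Tbx1+/- 1, 1.44 without WT 1, 2.93 without Tbx1+/- 2 and 3.88 without WT 2. By type, Ttr was higher in Tbx1+/- in 14 of 14 types in batch 1, by 14.5 to 45.7 times, and in 5 of 14 in batch 2. For Ptgds, whose PTB contrast was not used to choose it, the levels were 319 and 356 CPM in WT and 223 and 465 CPM in Tbx1+/-, and the groups overlapped. The log2 difference was 0.03 ± 0.34 (edgeR, unadjusted p = 0.94, adjusted p = 1.0), and -0.07 with the replicate block. Ptgds was lower in Tbx1+/- in 14 of 14 types in batch 1, at 0.560 to 0.726 times WT, and higher in 13 of 14 in batch 2, at up to 1.91 times. Of 20250 genes, 0 (0%) passed by edgeR and 0 by DESeq2, and p was under 0.05 before adjustment for 217 and 115. In 2 against 2 libraries, an exact permutation test could not go below p = 0.33.

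Other genes of both pathways were highest in various types, some of them those of Ttr or Ptgds, over the 12 PF/F and 14 PTB types with at least 50 nuclei in every library. For thyroid hormone and retinol handling, Rbp4, the retinol-binding protein that travels with transthyretin, was highest in Meningeal nuclei of the PF/F (47.9 ± 32.7 CPM, SD, n = 4) and in CP3 of the PTB (34.1 ± 8.47 CPM). Slco1c1, a thyroid hormone transporter gene, was highest among these 12 PF/F types in RL.early (62.6 ± 39.7 CPM), and in the PTB in CP6 (272 ± 35.3 CPM). In the edgeR fit over all 16 PF/F types, its highest type was 7.42 above the median type (log2). A smaller type left out here can therefore be higher than RL.early. Thrb, a thyroid hormone receptor gene, and Crym, which encodes a thyroid hormone-binding protein, were highest in CP5, at 1226 ± 94.7 and 319 ± 34.0 CPM. Over all types, small ones included, 6 of 6 tested genes of the list, Ttr included, passed in the PF/F (edgeR). In the PTB, 9 of 9 passed, and both shares were near the 96.8% and 91.1% of all genes. The median highest type of the list was 3.17 and 2.32 above the median type (log2), beside 1.21 and 0.80 over all genes. Between genotypes in GNPs, 0 of the 7 tested passed without the block, and with it none did other than Ttr, which was chosen by that contrast.

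In the prostaglandin D2 pathway, Hpgds, the other prostaglandin D synthase gene, was highest in the Immune type of the PF/F (535 ± 76.2 CPM) and in osteoclasts of the PTB (81.8 ± 9.34 CPM). Ptgs1, a cyclooxygenase gene that supplies the substrate, was also highest in the Immune type (112 ± 21.6 CPM). Ptgdr, a receptor gene for prostaglandin D2, was highest where Ptgds was, in Meningeal (15.1 ± 3.25 CPM) and in CT2 (11.6 ± 4.17 CPM). Hpgd, which encodes the enzyme that inactivates prostaglandins, was highest in matured osteoblasts/osteocytes (740 ± 110 CPM). Over all types, small ones included, 7 of 7 tested genes, Ptgds included, passed in both tissues, again near the share of all genes. The median was 5.21 in the PF/F, which is the value of Ptgds itself, and 2.28 in the PTB on the same log2 scale. Of the 4 genes of the list tested between genotypes in GNPs, 0 passed without the block, and with it none did other than Ptgds, which was chosen by that contrast. The types were clustered on all genes, so these places are a description.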

How the data were processed

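The authors deposited raw UMI counts for each barcode, made with Cell Ranger 7.0.0 on mm10 with introns counted, and before their SoupX correction. The expected counts (UMIs per PF/F nucleus after SoupX), as deposited in the authors' annotation, served only to compare totals, at 0.752 to 0.818 of the raw ones. Cell types are the authors' annotation. No doublet removal was described, and leaving out the 8% of nuclei with most UMIs was an alternative. The members and gene lists were chosen with earlier results of these data known.

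UMIs were summed per library and type in Python 3.11.15 (scipy 1.17.1, numpy 2.4.6, pandas 2.3.3). Flatness was tested by chi-square within a library; intervals cover counting error only. edgeR 4.0.16 (R 4.3.3; filterByExpr, TMM, quasi-likelihood, Benjamini-Hochberg over all genes, called at adjusted p under 0.05 and, between genotypes, over 1.5-fold) was checked on simulated data; DESeq2 1.42.0 was an alternative. Named genes were the members, 2 pathway lists and the 5 genes nearest each member, with leading genes of types added after their values were seen. Values of 2 of these genes are not reported here. The batches come from the study's methods, and their match to the replicate numbers is assumed. Deviations of same-numbered libraries correlated at 0.45 in GNPs, 0.55 in the PF/F and 0.48 in the PTB. Coordinates are from GENCODE vM21 (GRCm38).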

Additional observations from a re-analysis of the deposited data

Results flagged for a closer look

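The barcodes outside the annotation lie beyond the comparisons between types and genotypes, and both genes had a signal there in all 8 libraries, above the level that 3 counts would give. The mean over the 4 libraries was 168 CPM for Ttr and 79.3 CPM for Ptgds in the PF/F, and 74.4 CPM for Ttr and 549.6 CPM for Ptgds in the PTB. The choroid plexus markers that came with Ttr-rich barcodes in the PTB are given above with their counts, and their part in these levels was not tested.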

How the results depend on the processing

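Of 184 alternatives to 18 results, 166 kept direction and side of the threshold or moved by less than the spread between libraries. Keeping the call did not mean keeping the size of the type effect (log2, highest over median type, by edgeR): for Ttr in the PF/F it went from 4.57 to 0.24 without RL.early and 0.31 without nuclei rich in either gene, for Ptgds in the PF/F from 5.21 to 0.38 without Meningeal and Oligodendrocyte and 1.68 without rich nuclei, for Ptgds in the PTB from 4.05 to 0.95 without CT2 and CP3 and 0.91 without rich nuclei, and for Ttr in the PTB from 0.59 to 0.32 in nuclei with at least 2000 detected genes. With the replicate block, which pairs libraries of a batch, the GNP differences were 1.27 for Ttr and 1.06 for Ptgds (log2). They passed the threshold in the contrast by which both genes were chosen, so no support is drawn from it. Ptgds in the PTB was -0.068 with the block, which changed no other call. Without each library in turn, log2 differences ran from 0.58 to 1.91 for Ttr in GNPs, from -0.30 to 3.24 for Ptgds in GNPs, from -0.18 to 3.01 for Ptgds in the PF/F and from -0.60 to 0.46 for Ptgds in the PTB, where the sign turned without WT 1 (-0.04) and without Tbx1+/- 2. In these fits without a library, the lone library of its group was assumed to vary like the others. The PF/F fold of Ttr between types, 47.1, was 56.8 with every type, 32.8 per nucleus and 2.84 without nuclei with 10 or more UMIs of either gene, which took that of Ptgds from 121 to 9.94 in the PF/F (means that set WT 2 against 3 counts; 94.9 without WT 2) and from 21.4 to 2.67 in the PTB. Per nucleus, the PTB fold of Ttr was 2.10 (2.92 by CPM). The folds between types and of the ratio given here are geometric means over libraries. The fold of the ratio fell from 746 to 32.2 without Meningeal and Oligodendrocyte and to 3.27 without Meningeal and RL.early in the PF/F, and from 19.3 to 2.09 without CT2 and CP3 in the PTB. The alternatives per nucleus, without rich nuclei, and without RL.early, CT2 or CP3 were chosen after seeing the data. Except where types or nuclei are left out by construction, the cause was not tested. Ttr in annotated nuclei of WT 1 of the PTB rests on 192 UMIs.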

Other observations

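Other transcripts that were present in all types gave a scale for the evenness of Ttr and Ptgds, with no test between them. The 5 erythroid genes, which encode globins and a heme synthesis enzyme and belong to red blood cells, summed to 201, 219, 206 and 295 CPM in the median PF/F type. The highest type was 3.55, 3.33, 8.34 and 126 times above the lowest, and in Tbx1+/- 2 the Endothelial type reached 19484 CPM. In the PTB the fold was 4.47, 1.71, 45.0 and 4.28, with 13308 CPM in the matured chondrocytes of WT 2. The 9 mitochondrial genes varied less than the erythroid ones, by 1.6, 1.68, 2.40 and 2.64 times in the PF/F. In the PTB they varied by 1.23, 1.40, 2.18 and 2.02 times. Per degree of freedom, the chi-square of the mitochondrial genes was nonetheless 383 to 758 in the PF/F, because their counts were far larger than those of Ttr or Ptgds.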
